A study of Homo sapiens with 5 samples.

Results

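The regions described here are the ZBTB7A peaks on the long arm of chromosome 8, leaving out the stretch around MYC, in VCaP prostate cancer cells. They were chosen by position on the hg19 build: the summit of the peak lies at or above 46800000 on chromosome 8 and not between 127800000 and 129200000. The arm was picked because the full-serum list was already known to hold many peaks there, so its number of full-serum peaks describes the choice and is not a finding. The rule took 9208 of the 196770 peaks in the 3 lists, namely 1190 of 37782 in CSS, 1057 of 34120 in DHT and 6961 of 124868 in FBS.

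ZBTB7A was mapped by chromatin immunoprecipitation followed by sequencing (ChIP-seq) in VCaP, an established line in which the androgen receptor is active and TMPRSS2 is fused to ERG. The CSS group (2 libraries) was cells held in 5% serum depleted of hormones, with vehicle added for 4 hours. The DHT group (2 libraries) was given 10 nM of the androgen dihydrotestosterone for 4 hours in the same medium. The FBS group (1 library) was cells in routine culture with 10% full serum, and this reading rests on the culture condition and the series design, since the same treatment text is attached to all 5 libraries. With 1 peak list for each condition there is no spread between replicates, no test between conditions, and no total of reads from which depth could be given. Intervals are exact 95% Clopper-Pearson intervals for shares and exact conditional intervals for ratios, and they cover counting error only.

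ZBTB7A, also called LRF or Pokemon, is a transcription factor whose zinc fingers bind DNA and whose BTB domain recruits partners such as corepressors. It is known for silencing fetal globin genes in erythroid cells and has been studied in cancer both as an oncogene and as a tumour suppressor. The long arm of chromosome 8 carries MYC and the androgen receptor coactivator gene NCOA2, and gain of the arm is a frequent change in advanced prostate cancer. Copy number was not analysed here. Peaks are given by position, because no hg19 gene annotation was used, and none is assigned to a gene.

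The arm held 3.15% of the CSS list (2.98 to 3.33%), 3.10% of the DHT list (2.92 to 3.29%) and 5.57% of the FBS list. The share of the DHT list divided by that of the CSS list was 0.984 (0.905 to 1.07), so any difference in share between vehicle and DHT was within counting error. The FBS share was 1.77 times the CSS share and 1.80 times the DHT share, which is the value the arm was chosen for. On the rest of chromosome 8 below the start of the arm, the FBS share was 0.729 times the CSS share, from 1096 FBS and 455 CSS peaks. In the MYC stretch that was left out, 179 FBS, 9 CSS and 20 DHT peaks were called, and the FBS share was 6.02 times the CSS share.

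The limits of the rule fell in places of different kinds. Below the start, the nearest FBS peak lay on chromosome 8 from 43838515 to 43838734 (fold enrichment 3.35), and the first inside it from 46839127 to 46839341 (fold enrichment 2.66). The nearest CSS peaks lay at nearly the same 2 places, with fold enrichments of 2.90 outside and 2.94 inside. No CSS or FBS peak lay between these places, so the start of the arm is marked by an empty stretch. Whether reads can be placed in it on this build was not examined, so nothing is read from its lack of peaks. At the stretch left out there was no such break in FBS. The last FBS peak before it lay from 127794586 to 127794861 (fold enrichment 4.80) and the next, outside the rule, from 127802395 to 127802686 (6.98). At the other side, the FBS peak from 129199155 to 129199369 (4.80) was outside and the one from 129207592 to 129207999 (6.98) was inside. In CSS the peaks beside the same limits were from 127742603 to 127742828 (inside, 8.69), 128327934 to 128329649 (outside, 5.37), 129165547 to 129165739 (outside, 5.86) and 129422142 to 129422332 (inside, 4.78). In DHT they were from 127742588 to 127742841 (inside, 8.85), 127817456 to 127817653 (outside, 4.88), 129165529 to 129165728 (outside, 6.99) and 129837740 to 129838205 (inside, 7.81), and its first peak on the arm lay from 46839102 to 46839404.

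Peaks were next counted by summit in windows of 1 Mb, of which 100 held a peak of the arm and 96 lay wholly inside the rule. A whole window held a median of 10.0 CSS peaks (lowest 1, highest 43), 10.0 DHT peaks (2 to 39) and 66.5 FBS peaks (15 to 141). Windows elsewhere, 2786 on chromosomes 1 to 22 and X, had medians of 11 CSS, 10.0 DHT and 39.0 FBS peaks. The typical window of the arm was thus close to the rest of the genome in CSS and DHT, and held 1.71 times the usual number of FBS peaks. More FBS peaks than the 90th percentile of windows elsewhere, which was 77.0, were found in 42 of the 96 windows (43.8%), against 9.73% of windows elsewhere. In CSS, 4 of the 96 windows (4.17%) passed the 90th percentile of 23, against 9.98% elsewhere, and in DHT 5 (5.21%) passed that of 22, against 8.79%.

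**Figure D1:**
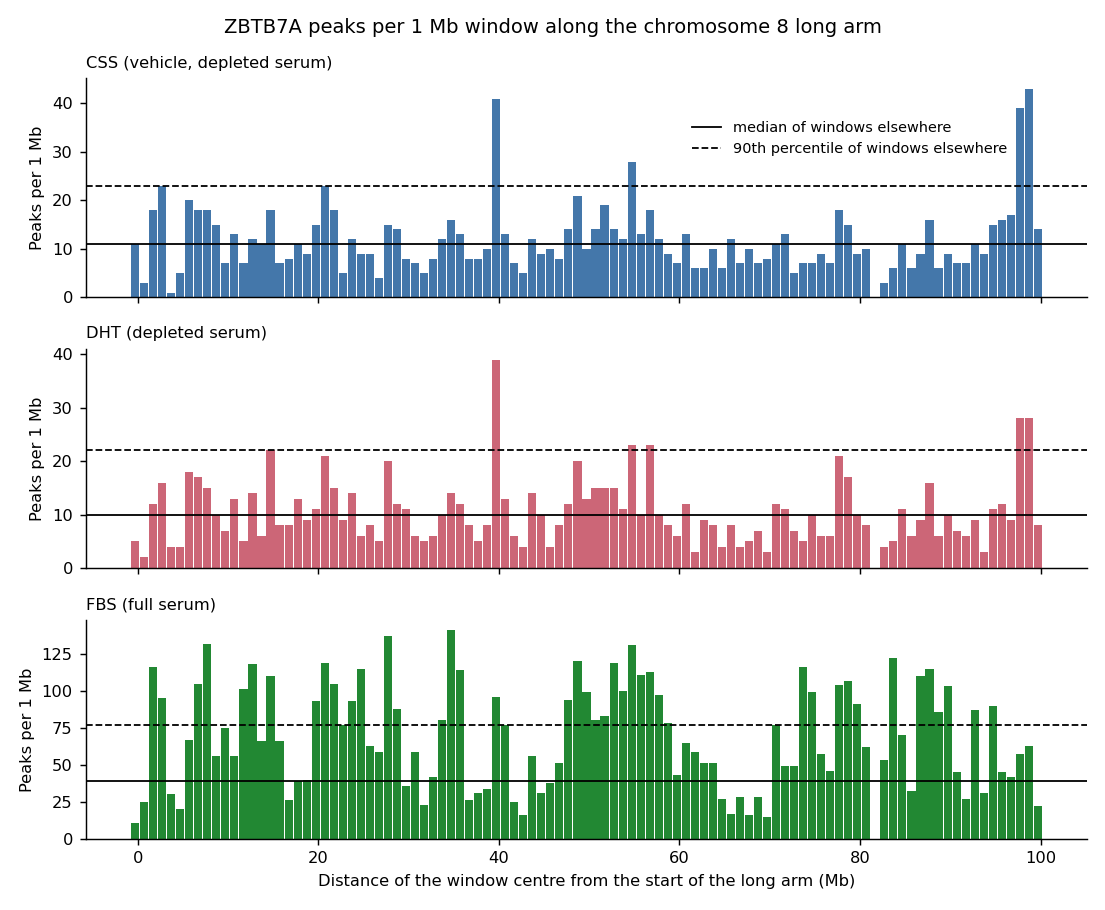
Peaks per 1 Mb window (vertical axis) against the distance of the window centre from the start of the arm in Mb (horizontal axis), with 1 panel per list; solid and dashed lines are the median and the 90th percentile of windows elsewhere. FBS bars pass the dashed line in 42 of 96 whole windows, while CSS and DHT bars lie around the median apart from a few tall windows; the gap near the right is the MYC stretch left out.

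FBS peaks were not spread evenly along the arm. Up to 50000000 the arm held 247 FBS, 55 CSS and 35 DHT peaks. The next stretches of 10 Mb, from 50000001 to 60000000 and from 60000001 to 70000000, held 760 and 741 FBS peaks, with window medians of 71.0 and 71.5. The windows from 70000001 to 80000000 held 715 FBS peaks but only 91 CSS and 93 DHT peaks, so the FBS share was 2.38 times the CSS share. The stretch from 80000001 to 90000000 held 640 FBS peaks in windows that ran from 16 to 141. From 90000001 to 100000000 there were 771 FBS peaks, and from 100000001 to 110000000 there were 848, the most of any 10 Mb stretch of the arm. The stretch from 110000001 to 120000000 held 357 FBS and 69 DHT peaks, the fewest FBS and DHT peaks of the whole 10 Mb stretches, and 89 CSS peaks. Its FBS share was 1.21 times the CSS share.

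Around the MYC stretch the FBS counts were high again. The windows from 120000001 to 130000000 held 735 FBS, 85 CSS and 87 DHT peaks even with that stretch left out, and the FBS share was 2.62 times the CSS share. Those from 130000001 to 140000000 held 797 FBS, 88 CSS and 85 DHT peaks, and this value was 2.74, the highest of these stretches. In the last stretch, from 140000001 to the end of the arm, the order turned: 350 FBS peaks stood against 153 CSS and 99 DHT peaks, and the FBS share was 0.692 times the CSS share. The DHT share in that last stretch was 0.717 times the CSS share. Over the other stretches, the DHT share divided by the CSS share ran from 0.705 at the start of the arm to 1.13.

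The longest unbroken run of windows with more than 77 FBS peaks spanned 12 windows, from 94000001 to 106000000. It held 1225 FBS, 184 CSS and 175 DHT peaks, and between 78 and 131 FBS peaks in each window. The next longest, from 133000001 to 137000000, spanned 4 windows and held 414 FBS peaks. The longest run at or below the FBS median of windows elsewhere spanned 6 windows, from 111000001 to 117000000. It held 131 FBS, 50 CSS and 31 DHT peaks, and no more than 28 FBS peaks in any window. The change from the rich run to the poor one therefore lay within a few Mb.

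The 5 windows with the most FBS peaks were spread over the arm. The window from 81000001 to 82000000 held 141 FBS, 16 CSS and 14 DHT peaks. The window from 74000001 to 75000000 held 137 FBS, 15 CSS and 20 DHT peaks, and the one from 54000001 to 55000000 held 132, 18 and 15. The window from 101000001 to 102000000 held 131 FBS, 28 CSS and 23 DHT peaks, and the one from 130000001 to 131000000 held 122 FBS peaks but only 6 CSS and 5 DHT peaks. The richest stretches of 100 kb in FBS, picked after their values were seen, were from 99800001 to 99900000 (25 FBS, 3 CSS and 2 DHT peaks), and from 120800001 to 120900000 (24, 4 and 2).

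A window was called uneven where the FBS share of its peaks was at least 2 times the CSS share, among windows with at least 10 peaks over the 3 lists. On the arm 39 of 100 windows (39.0%) passed, against 10.4% of all windows, and since the arm was chosen for this contrast nothing is read from the excess. The ratio had a median of 1.85 and was above 1 in 87 of the 100 windows. The highest ratios were 6.15 from 130000001 to 131000000, 5.35 in the part of the window from 129000001 to 130000000 that lies inside the rule (53 FBS and 3 CSS peaks), and 5.01 from 120000001 to 121000000 (116 FBS and 7 CSS peaks). Ratios of at most 0.5 were found in 6 windows (6.00%, against 15.4% of all windows). The lowest were 0.303 in the part of a window at the start of the arm (11 FBS and 11 CSS peaks), 0.429 from 112000001 to 113000000 (17 and 12) and 0.442 from 144000001 to 145000000 (57 and 39). The arm thus held windows at both ends of the range.

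**Figure D2:**
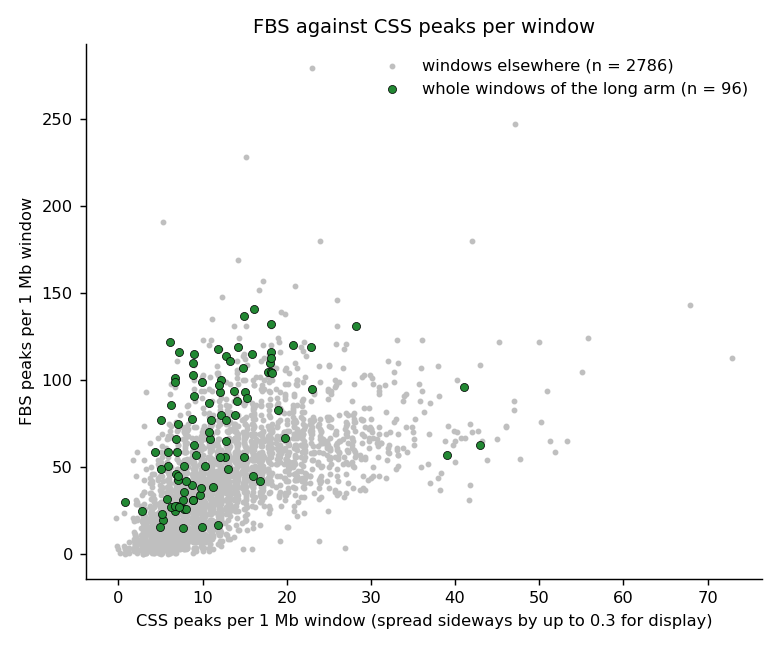
FBS peaks (vertical axis) against CSS peaks (horizontal axis) per 1 Mb window, with 96 whole windows of the arm in green and 2786 windows elsewhere in grey. Most green points lie in the upper part of the grey cloud for their number of CSS peaks. The green points at 39 and 43 CSS peaks, with 57 and 63 FBS peaks, do not.

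Few windows of the arm were uneven between DHT and vehicle. In 0 of the 100 windows was the DHT share at least 2 times the CSS share, against 1.48% of all windows, and in 3 (3%, against 3.84%) it was at most 0.5 times. The highest ratio, 1.99, came from 9 DHT and 5 CSS peaks from 69000001 to 70000000, and its interval (0.60 to 7.57) included 1. The next were 1.66 from 109000001 to 110000000 (9 and 6 peaks) and 1.58 from 121000001 to 122000000 (10 and 7). The lowest was 0.369 (0.0643 to 1.48), from 3 DHT and 9 CSS peaks from 140000001 to 141000000, followed by 0.415 from 116000001 to 117000000 (3 and 8) and 0.443 from 92000001 to 93000000 (4 and 10). At such counts, differences between DHT and vehicle in single windows were not detectable. Across the 96 whole windows, which are neighbours on 1 chromosome and not replicates, Spearman's rho of the CSS counts was 0.863 with DHT and 0.546 with FBS, and that of the DHT counts with FBS was 0.622. Across the 2786 windows elsewhere the same values were 0.883, 0.696 and 0.720.

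Each list was divided into 10 ranked parts by −log10 q, the peak caller's significance value, with tied values kept together. It is not the height of a peak over background, which is given by fold enrichment. The arm held a larger share of FBS than of CSS and DHT in each of the 10 parts. In the lowest part it held 4.37% of FBS, 3.11% of CSS and 2.73% of DHT peaks, and in the highest part 5.87% (5.46 to 6.29%) of FBS, 3.73% (3.15 to 4.39%) of CSS and 3.49% (2.90 to 4.17%) of DHT peaks. The FBS share was highest in part 9, at 6.84%. The ratio of FBS to CSS shares ran from 1.40 in the lowest part to 2.41 in part 5, and was 1.57 in the highest. These values split up the FBS number the arm was chosen for and are given as a description.

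**Figure D3:**
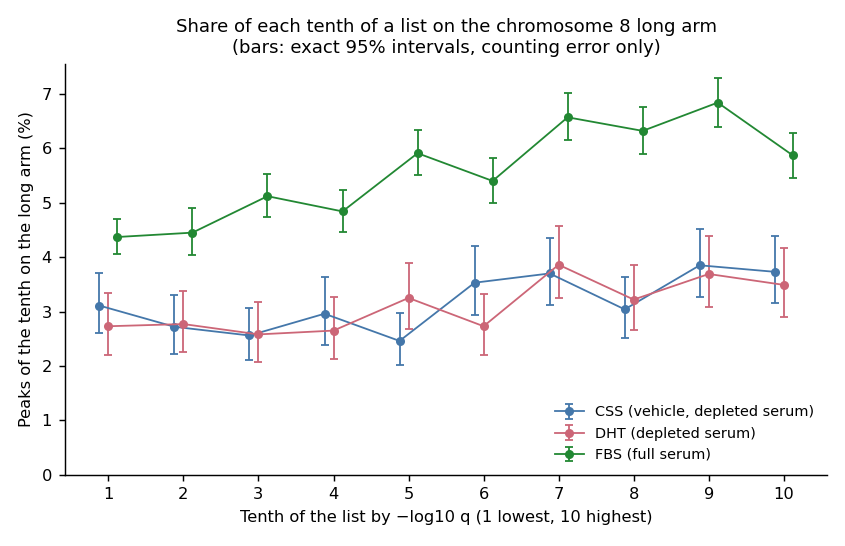
Share of each ranked part of a list that lies on the arm, in percent (vertical axis), against the part by −log10 q from lowest (1) to highest (10); bars are exact 95% intervals for counting error. The FBS points lie above the CSS and DHT points in all 10 parts, and the CSS and DHT intervals overlap.

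The rank of the arm's peaks in their own lists depended on the measure. By −log10 q, the arm's CSS, DHT and FBS peaks had median percentiles of 55.5, 56.8 and 56.1, against 49.0, 50 and 45.4 on other chromosomes. These medians rest on many tied values: the largest set of equal −log10 q held 3158 CSS, 1560 DHT and 12515 FBS peaks. Median fold enrichment on the arm was 5.61 in CSS (5.58 on other chromosomes), 5.78 in DHT (5.70) and 4.80 (4.55) for FBS. By percentile of fold enrichment, the medians were 53.3 for CSS (51.2 on other chromosomes), 52.2 for DHT (50) and 60.0 for FBS (49.6). The intervals for CSS (51.2 to 55.8) and DHT (48.7 to 55.8) included the value on other chromosomes.

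Strong peaks are those whose −log10 q reaches 10. They made up 208 of the 1190 CSS peaks (17.5%, against 14.5% of the whole list), 147 of the 1057 DHT peaks (13.9%, against 11.8%) and 356 of the 6961 FBS peaks (5.11%, against 4.92%). Without the 286 kb stretch described next, the shares were 15.0% (13.0 to 17.2%) in CSS, 11.7% (9.78 to 13.8%) in DHT and 4.85% (4.36 to 5.39%) in FBS, all close to the whole lists. Peaks of the arm had median widths of 245, 255 and 259 bp for CSS, DHT and FBS, close to the 239, 249 and 258 bp on other chromosomes. Those reaching 1000 bp numbered 14 in CSS (1.18%, against 1.87% of the list), 17 in DHT (1.61%, against 1.36%) and 63 in FBS (0.905%, against 0.979%).

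A single 286 kb stretch, from 86554857 to 86840906, held most of the highest-ranked CSS and DHT peaks of the arm. It was picked after the values were seen, as the span of the CSS peaks reaching a −log10 q of 20 in the window that held most of them, so its high CSS values describe the choice. That window, from 86000001 to 87000000, held 41 CSS, 39 DHT and 96 FBS peaks, the most DHT peaks of any window of the arm and the most CSS peaks but for 1 window. Of the 43 CSS peaks of the arm that reached that value, 35 lay in the stretch, as did 7 of 8 in DHT and 3 of 44 in FBS. Over whole lists, 2.21% of CSS, 0.580% of DHT and 0.569% of FBS peaks reach that level. Among the 500 peaks of the CSS list with the highest −log10 q, the arm held 36, and 33 of them were in the stretch. Of the 502 highest DHT peaks (ties included) it held 19, with 14 in the stretch, while of the 500 highest FBS peaks it held 26, with 0 in the stretch.

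The peaks of that stretch had high −log10 q but low fold enrichment. Its 35 CSS peaks had a median −log10 q of 31.9 (23 to 49.1) and a median fold enrichment of 5.38 (4.24 to 9.12), while the 173 other strong CSS peaks of the arm had medians of 12.6 and 9.14. By −log10 q their median stood at percentile 99.7 of the CSS list, and by fold enrichment at percentile 44.8. The 30 DHT peaks had medians of 15.4 and 4.50, at percentiles 98.0 and 14.4. The 38 FBS peaks had medians of 10.0 and 3.36, at percentiles 95.1 and 7.06. They were also broad: the CSS, DHT and FBS medians of width were 686, 736 and 541 bp. All 3 of the widest FBS peaks of the arm lay here, from 86814283 to 86817352 (3070 bp), 86786815 to 86789813 (2999 bp) and 86756329 to 86759209 (2881 bp).

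In CSS, the peaks there stood mostly in groups of 3. With a gap of more than 3 kb between summits ending a group, the 35 CSS peaks fell into 12 groups, 11 of them of 3 peaks and 1 of 2, and no CSS group spanned more than 1975 bp. The DHT peaks fell into 12 groups as well, 6 of them of 3 peaks, and their first summits lay within 194 bp of those in CSS. Of the 11 steps from one CSS group to the next, 4 measured between 12 and 12.5 kb (12.2, 12.4, 12.2 and 12.2 kb), as did 3 of the 11 DHT steps, and the other CSS steps ran from 6.72 to 153 kb. FBS peaks fell into 22 groups, only 5 of them of 3 peaks, and 0 of their 21 steps was of that length. No list had a peak from 86576320 to 86726458, a gap of 150 kb. Whether reads can be placed there on this build was not examined, so nothing is read from its lack of peaks. Every CSS peak in the stretch (35 of 35) and every DHT peak (30 of 30) had a partner in both other lists. All 35 CSS peaks and 27 of the 30 DHT peaks were strong. Among strong peaks of the whole lists, 95.2% of CSS peaks had a DHT partner and 47.9% an FBS partner. For strong DHT peaks these shares were 94.6% with CSS and 47.1% with FBS. Of the 38 FBS peaks in the stretch, 20 (52.6%, against 17.2% of the list) had a CSS or DHT partner. Whether the sequence is repeated in the genome was not examined, and the sources used here do not give how reads that map to several places were treated.

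**Figure D4:**
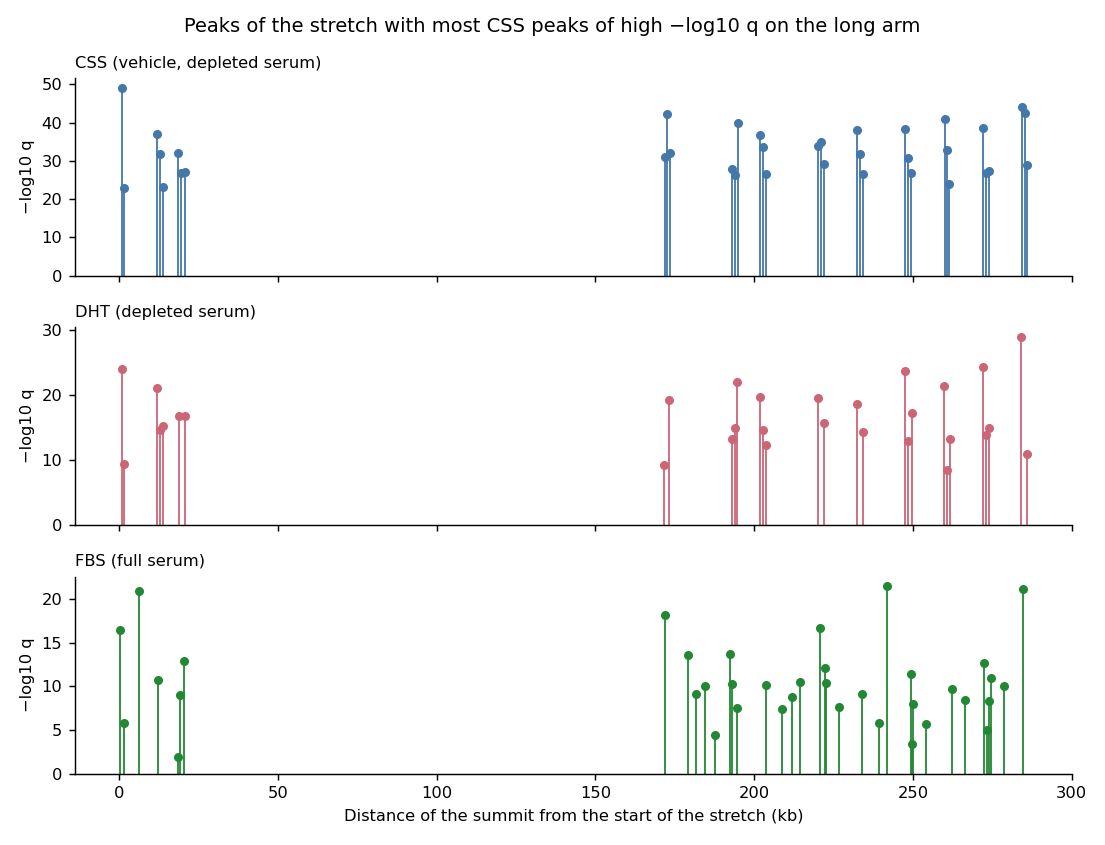
The −log10 q of each peak (vertical axis) against the distance of its summit from the start of the 286 kb stretch in kb (horizontal axis), with 1 panel per list. CSS and DHT peaks stand in 12 groups of 2 or 3 at matching places, several of them about 12 kb apart, with an empty part of 150 kb in each panel.

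At the start of the arm, too, fold enrichments were low. In its first 100 kb there were 10 CSS, 3 DHT and 8 FBS peaks. The CSS peaks had a median fold enrichment of 2.87 (2.11 to 6.19), at percentile 0.478 of the list, and a median −log10 q of 8.17, at percentile 77.5. The DHT peaks had medians of 3 and 4.38, at percentiles 0.343 and 38.4, and the FBS peaks medians of 2.77 and 4.98, at percentiles 1.02 and 62.3. The rank by −log10 q was thus above the middle of the list in CSS and FBS and below it in DHT. The longest CSS run of peaks less than 10 kb apart on the arm, 7 peaks from 46839095 to 46856324, was here. One of its peaks, from 46844116 to 46844430, was among the strongest CSS peaks without a DHT partner, with a −log10 q of 11.9 and a fold enrichment of only 2.74.

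The peak with the highest fold enrichment on the arm was the same place in CSS and FBS, on chromosome 8 from 70602246 to 70602605 in CSS. It was enriched 15.0-fold in CSS, 11.8-fold in DHT and 18.2-fold in FBS, and it ranked 245, 488 and 36 in the 3 lists by −log10 q. The other 4 CSS leaders had no FBS partner. They lay from 112437010 to 112437301 (13.9 in CSS, 8.08 in DHT), 113085393 to 113085750 (13.0 and 12), 130394276 to 130394525 (12.9 and 9.25) and 123269522 to 123269845 (12.7 and 13.1). The places from 113085393 and from 123269522 were also DHT leaders.

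Among the 5 DHT leaders, the highest was the peak from 123269574 to 123269836 at 13.1. The others lay from 59589385 to 59589757 (12.1 in DHT, 9.74 in CSS), 113085465 to 113085740 (12 and 13.0), 64425366 to 64425621 (12 and 11.4) and 83923362 to 83923631 (11.8 and 8.68). Only the peak from 59589385 had an FBS partner, enriched 3.86-fold and of rank 101644 of 124868. These few leaders do not stand for the arm: among its peaks enriched at least 5-fold, 63.4% of CSS and 62.6% of DHT peaks had an FBS partner, against 49.9% and 49.4% on other chromosomes.

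The FBS leaders behaved otherwise. After the peak at 70602195 to 70602671 came 79428246 to 79428861 (FBS 16.9, CSS 10.8, DHT 7.72) and 100507940 to 100508325 (15.1, 6.51 and 6.94), both called in the 3 lists. The peak from 86019375 to 86019933 (12.2 in FBS) had a DHT partner at 7.16 and none in CSS. The peak from 97247429 to 97247919 (12.2, −log10 q of 26.4, rank 308) had no partner in either and was the FBS-only peak of the arm with the highest −log10 q. The next FBS-only peaks by −log10 q lay from 142409066 to 142409812 (21.7, fold enrichment 6.00) and, in the stretch of grouped peaks, from 86796288 to 86796898 (21.5, 6.27).

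The 3 widest CSS peaks and the 3 widest DHT peaks of the arm were at different places. In CSS they were from 117690435 to 117692543 (2109 bp), 95602361 to 95604054 (1694 bp) and 129837689 to 129839265 (1577 bp), and they overlapped 4, 2 and 3 narrower DHT peaks. The second of them had no FBS partner. In DHT they were from 62664914 to 62666461 (1548 bp), 65597741 to 65599273 (1533 bp) and, in the stretch of grouped peaks, 86727107 to 86728504 (1398 bp). These overlapped 1, 2 and 2 CSS peaks, and the CSS peak at the first was nearly as wide (1425 bp).

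Peaks were then compared between lists, counting a partner where 2 peaks overlapped by at least 1 bp. Of the arm's CSS peaks, 717 of 1190 (60.3%, 57.4 to 63.0%) had a DHT partner, against 56.8% of the whole CSS list. Of its DHT peaks, 729 of 1057 (69.0%, 66.1 to 71.7%) had a CSS partner, against 63.9% of the whole list. Partners in FBS were found for 669 CSS peaks (56.2%, 53.3 to 59.1%) and 624 DHT peaks (59.0%, 56.0 to 62.0%), against 44.1% and 48.2% of the lists. On chromosomes other than 8 these shares were 43.8% (43.3 to 44.3%) and 47.9% (47.4 to 48.4%). Seen from FBS, 797 of 6961 peaks (11.4%, 10.7 to 12.2%) had a CSS or DHT partner, against 17.2% of the list, and 6164 had neither (88.6%, against 82.8%). A CSS partner was found for 656 of them (9.42%, against 13.5%) and a DHT partner for 618 (8.88%, against 13.3%). The arm was chosen for its many FBS peaks, of which it held 71.0 per Mb against 42.1 on other chromosomes, while CSS (12 against 12.8) and DHT (10.8 against 11.6) did not stand out. Both more CSS and DHT peaks with an FBS partner and a smaller share of FBS peaks with a CSS or DHT partner go with such numbers, so these shares are a description and nothing is read from them.

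**Figure D5:**
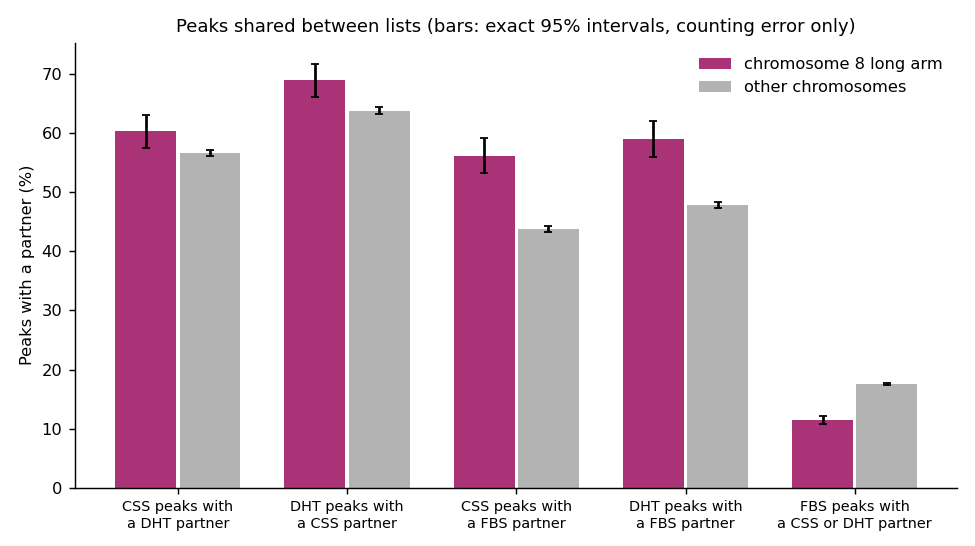
Share of peaks with a partner in another list, in percent (vertical axis), for 5 pairings of lists, on the arm (purple) and on chromosomes other than 8 (grey); bars are exact 95% intervals for counting error. FBS partners of CSS and DHT peaks are more frequent on the arm (56.2% and 59.0%), and CSS or DHT partners of FBS peaks are less frequent (11.4%).

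FBS peaks also covered more of the arm, 2.21% of the bases of its whole windows against 1.32% on other chromosomes, while CSS peaks covered 0.397% against 0.406% and DHT peaks 0.358% against 0.365%. How often a CSS peak had an FBS partner followed the number of FBS peaks in the window. In windows with more than 77 FBS peaks it was 61.7% (57.8 to 65.6%) on the arm and 56.5% (55.2 to 57.8%) elsewhere. In windows with 39 or fewer it was 35.9% (28.7 to 43.6%) and 33.4% (32.5 to 34.2%), and in those between, 55.4% (50.2 to 60.6%) and 47.9% (47.1 to 48.6%). For DHT peaks the shares in the same order were 64.2% and 59.5%, 42.8% and 37.9%, and 55.6% and 51.5%. These classes were set by the same FBS peaks that supply the partners, so a rise of the share with their number is partly built in. The classes were chosen after the values were seen, and why the arm differed from elsewhere was not tested.

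Among strong peaks, 203 of 208 CSS peaks (97.6%, against 95.2% of strong peaks in the list) had a DHT partner and 141 of 147 DHT peaks (95.9%, against 94.6%) a CSS partner. An FBS partner was present for 133 of the 208 CSS peaks (63.9%, against 47.9%) and 98 of the 147 DHT peaks (66.7%, against 47.1%). Without the 286 kb stretch, in which every CSS and DHT peak had one, these shares were 56.6% (48.9 to 64.1%) and 59.2% (49.8 to 68.0%). Of the 356 strong FBS peaks, 213 (59.8%, against 67.1%) had a CSS or DHT partner, 197 a CSS partner (55.3%, against 59.2%) and 198 a DHT partner (55.6%, against 59.4%). The strongest CSS peak without an FBS partner, named after its values were seen, lay from 65598394 to 65599247, with a −log10 q of 26.3 in CSS and 18.3 in DHT. Its DHT partner was wider, from 65597741 to 65599273, and did overlap an FBS peak, from 65597711 to 65598139.

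After merging overlapping peaks, the arm held 7586 regions. Of these, 447 (5.89%, against 7.67% of regions in the series) held a peak of each list, and 6164 (81.3%, against 68.4%) a peak of FBS alone. A further 209 (2.76%, against 5.97%) held CSS and DHT peaks only. CSS alone held 299 (3.94%, against 7.74% on other chromosomes) and DHT alone 191 (2.52%, against 5.21%). CSS with FBS held 151 (1.99%, against 2.73%) and DHT with FBS 125 (1.65%, against 2.66%). Regions of FBS alone, for which the arm was chosen, count in the total of each of these shares. Where CSS and DHT peaks overlapped, their summits lay a median of 62.0 bp apart, as on other chromosomes. CSS summits lay a median of 121 bp from the FBS summit on the arm and 116 bp on other chromosomes, and DHT summits 109 bp and 111 bp.

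Peaks called with only vehicle or only DHT in hormone-depleted serum stood at the same median percentiles of −log10 q on the arm as on other chromosomes, 27.9 for CSS-only and 31.3 for DHT-only peaks. Of the CSS peaks of the arm, 473 (39.7%, against 43.2% of the list) had no DHT partner. Of the DHT peaks, 328 (31.0%, against 36.1%) had no CSS partner. An FBS partner was present for 174 of the 473 (36.8%, 32.4 to 41.3%, against 29.9% of CSS-only peaks in the list) and 137 of the 328 (41.8%, 36.4 to 47.3%, against 37.2% of DHT-only peaks). The CSS-only share was the lower of the 2 on the arm, as in the whole lists. The intervals of the 2 shares overlapped, and their difference was not tested.

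Of the strong CSS peaks of the arm, 5 of 208 (2.40%, against 4.84% on other chromosomes) had no DHT partner, and of the strong DHT peaks 6 of 147 (4.08%, against 5.47%) had no CSS partner. The 3 CSS-only peaks of highest −log10 q were from 54688390 to 54688627 (12.4, fold enrichment 9.48), the peak from 46844116 named above, and 87896157 to 87896414 (11.2, 9.15), which had an FBS partner at 4.80. The 3 DHT-only peaks of highest −log10 q were from 108142695 to 108142989 (12.7), 81145705 to 81146016 (12.5, fold enrichment 9.59), with an FBS partner at 3.52, and 48867808 to 48868063 (11.2, 8.93). By rank they stood 1639, 1760 and 2712 among DHT peaks.

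Successive FBS summits on the arm lay a median of 7.95 kb apart, against 11.1 kb on the other autosomes. For CSS and DHT the medians were wider on the arm, 48.5 kb against 40.7 kb and 53.4 kb against 45.0 kb. A next summit less than 10 kb away followed 58.7% of FBS summits (46.6% on other autosomes), 20.5% of CSS summits (19.8%) and 19.1% of DHT summits (18.2%). The longest FBS run at this spacing held 35 peaks from 58901684 to 59073899, over 172 kb. The longest stretches without a summit were 1044 kb in CSS, from 50219089 to 51262774, 851.2 kb in DHT, from 58056031 to 58907208, and 272.7 kb in FBS, from 63316249 to 63588962. The longest empty stretch of DHT ended just after the start of the longest FBS run, but these are extremes of separate lists and no relation between them was tested.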

How the data were processed

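The data were 3 peak lists in narrowPeak format from ZBTB7A ChIP-seq in VCaP cells, 1 each for CSS, DHT and FBS. The labels name 1 list for both libraries of CSS and 1 for both of DHT, and the sources used here do not give how the pairs were combined. Per the submitters' processing notes, BWA 0.7.2-r351, SAMtools 0.1.18, MACS2 2.0.10.20131216 and hg19 (GRCh37) were used. Control, q threshold and read filters: not given in the sources used here. Fold enrichment is a ratio over background and −log10 q is the peak caller's, both as deposited. The score, as deposited, is 10 times −log10 q cut to a whole number (100% of peaks). These are the authors' values and were used only within a list. Summit offsets were used as deposited, and positions are written with a first base of 1.

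The members, tests and lists were chosen with earlier results of these data known. Peaks were named by rule: the 5 highest by fold enrichment, the 3 widest and the 3 highest by −log10 q among CSS-only, DHT-only and FBS-only peaks of the arm, the windows with the most FBS peaks and the most uneven windows, and the peaks beside each limit. In ratios per window a CSS count under 3 was taken as 3. The 10 ranked parts keep tied −log10 q together and so differ in size. Windows elsewhere are those on chromosomes 1 to 22 and X that hold at least 1 peak. The overlap code was checked on simulated data and equalled bedtools 2.31.1 for 6 pairs of lists. Tables were made with pandas 2.3.3 and numpy 2.4.6 in Python 3.11.15, intervals with scipy 1.17.1 and plots with matplotlib 3.10.9. The windows with the most CSS peaks, the 100 kb stretches, the 286 kb stretch, the start of the arm, the classes of FBS number and the strongest peaks without an FBS partner were chosen after their values were seen.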

Additional observations from a re-analysis of the deposited data

How the results depend on the processing

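Over all other settings, 40 values stayed inside the interval of the value given in the text and 46 lay outside it. The DHT share was below the CSS share in the text (ratio 0.984) and above it without the last 5 windows (1.01), inside the interval. The FBS share stayed above the CSS share in each setting, but the arm was chosen for this contrast, so nothing is read from it. Shares of peaks and percentiles have no direction that could turn. No paired analysis was possible because CSS and DHT, whose libraries share numbers in the labels, have 1 list each, and leaving out a library was not possible for the same reason.

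The FBS share over the CSS share (1.77) was 1.53 at a −log10 q of at least 10, 2.12 at a fold enrichment of at least 5, 2.05 with equal numbers of top peaks and 1.92 without the last 5 windows. In the highest of the 10 ranked parts (1.57) it was 2.16 ranked by fold enrichment and 2.01 without the 286 kb stretch. Leaving out that stretch and the last 5 windows were chosen after seeing the data.

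CSS peaks with a DHT partner made up 82.9% where −log10 q was at least 5, 97.6% at 10, 76.5% at a fold enrichment of at least 5, 63.3% with equal numbers, 46.6% with an overlap of 50% of both peaks and 40.3% with summits within 100 bp. DHT peaks with a CSS partner came to 85.0%, 95.9%, 76.4%, 52.4% and 45.4% in that order, equal numbers aside. With an FBS partner, CSS peaks came to 66.7%, 63.9%, 63.4%, 36.6%, 27.5% and 24.4%, and DHT peaks to 66.6%, 66.7%, 62.6%, 37.7%, 30.4% and 28.3%. FBS peaks with a CSS or DHT partner came to 15.9%, 59.8%, 13.5%, 20.2%, 6.72% and 6.41%. Stricter overlaps lower these shares by construction. On other chromosomes, CSS peaks with a DHT partner came to 78.8%, 95.2%, 71.6%, 58.8%, 43.7% and 37.7% in the same order. With an FBS partner, they came to 51.4%, 47.3%, 49.9%, 25.7%, 20.7% and 19.6%. FBS peaks there with a CSS or DHT partner came to 26.6%, 67.7%, 21.9%, 32.8%, 9.55% and 9.52%. In every setting, CSS and DHT peaks had partners more often on the arm, and FBS peaks less often. Shares changed with the setting there too, and nothing is read from these differences.

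The median percentile by fold enrichment in place of −log10 q was 52.2 in DHT and 60.0 in FBS. Summits near the next came to 14.6% in CSS, 13.8% in DHT and 33.2% in FBS at 5 kb, and to 16.5%, 13.9% and 35.8% with a −log10 q of at least 5. CSS-only peaks with an FBS partner made up 54.5% where −log10 q was at least 5 and 41.7% when peaks within 500 bp were partners, and DHT-only peaks to 47.8% at the first of these settings. The cause was not tested for the other settings. Depth is unknown, so list lengths and ranks cannot be set against it.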
